A study of Homo sapiens with 12 samples.

Results

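The genes described here are the 5 NF-kB subunits, NFKB1, NFKB2, RELA, RELB and REL, and 5 genes whose products act back on NF-kB signalling, NFKBIA, NFKBIE, TNFAIP3, TNIP1 and BIRC3. They were chosen by gene symbol, with earlier results of these data known, and each matched 1 of the 60106 genes in the count tables. RNA was sequenced from PC3 and VCaP, established human prostate cancer cell lines, after siRNA against the transcription factor FOXA1 (siFOXA1) or a non-targeting siRNA (NSI), with 3 replicate libraries in each of the 4 groups, 12 libraries in all. The study's title concerns FOXA1, splicing-related genes and alternative splicing, and the comparison made here asks how siFOXA1 changed the transcript levels of these NF-kB genes in each line.

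The PC3 groups received 20 nM siRNA in RPMI-1640, and their libraries came from polyadenylated RNA with a stranded mRNA kit. The VCaP groups received 40 nM siRNA in DMEM, and their libraries came from a total RNA kit. All groups were transfected with RNAiMax, kept in medium with foetal calf serum and collected 72 hours after the start of siRNA treatment. Reads were counted without regard to strand in PC3 and by strand in VCaP. The line, the dose, the medium, the kit and the counting therefore cannot be told apart in any comparison between lines. The labels do not say that replicates were separate cultures, so p-values measure only the spread between these libraries, which may be technical.

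NF-kB proteins are dimers of 5 related subunits that bind kappaB sites in DNA. In the canonical pathway, receptors for TNF, IL-1 or microbial products activate the IKK kinases, IkB proteins such as the product of NFKBIA are degraded, and dimers of RELA or REL with p50, the product of NFKB1, enter the nucleus. In the non-canonical pathway the kinase NIK, encoded by MAP3K14, leads to processing of the NFKB2 product and to dimers with RELB. Several of the genes that NF-kB switches on encode its own inhibitors, which makes them feedback genes.

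Totals over all genes lay between 123140099 and 188226483 counts in PC3 and between 48187047 and 59839211 in VCaP. FOXA1 was at 303, 244 and 266 CPM (counts scaled to library size) in the NSI libraries of PC3 and at 163, 182 and 162 in the siFOXA1 libraries, which is -0.68 on the log2 scale (SE 0.10, adjusted p = 0.0022). In VCaP it went from 458, 468 and 544 CPM to 85.2, 73.6 and 83.0 CPM, which is -2.60 on the log2 scale (SE 0.09, adjusted p = 1.84e-07). The 2 falls differed, VCaP minus PC3, by -1.94 on the log2 scale (adjusted p = 2.98e-07). All 4 epithelial markers were at 1 CPM or more in both lines. A list of 6 genes typical of VCaP summed there to 5562 to 5764 CPM with NSI and to 3853 to 4594 CPM with siFOXA1. In PC3 that list summed to at most 2.95 CPM. The 11 leukocyte markers summed to at most 3.65 CPM in any library. Mitochondrial genes took 13.1% to 15.7% of counts in PC3, with overlapping groups, and in VCaP 3.02% to 3.29% with NSI and 4.04% to 4.69% with siFOXA1; the part of this in the VCaP results was not tested.

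The promoters are shown first because kappaB sites are the sequences through which NF-kB acts on its targets, and feedback genes are among them. RefSeq promoter windows (GRCh38.p14, from 250 bases before to 50 bases after a gene's start) were found for 8 of the 10 genes, in 13 windows. RELB and NFKBIE were not matched. A match to the kappaB consensus GGGRNNYYCC (R is A or G, Y is C or T, N any base) was sought on either strand. It was present in 8 of the 13 windows, against 11.3% of all 35116 windows. By gene, 7 of the 8 had a match in some window, and no share over all genes was computed. The members were chosen as NF-kB genes, so these counts are a description only. The stretches below run 5′ to 3′ on the gene's strand, and capitals mark the kappaB matches, which overlap in some places. Each gene is shown by 1 window; another NFKB2 window, with 2 matches, is not printed.
NFKB1, chr4:102501295-102501334 (+): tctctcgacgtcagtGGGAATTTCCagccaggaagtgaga
NFKB2, chr10:102394456-102394524 (+): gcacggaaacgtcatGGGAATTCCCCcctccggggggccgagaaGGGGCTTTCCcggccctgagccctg
REL, chr2:60881512-60881552 (+): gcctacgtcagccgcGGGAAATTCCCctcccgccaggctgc
NFKBIA, chr14:35404806-35404845 (-): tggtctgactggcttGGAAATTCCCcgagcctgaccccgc
TNFAIP3, chr6:137867177-137867228 (+): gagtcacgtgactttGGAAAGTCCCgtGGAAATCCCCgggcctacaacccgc
TNIP1, chr5:151081052-151081091 (-): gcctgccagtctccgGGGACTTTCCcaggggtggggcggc
BIRC3, chr11:102317270-102317373 (+): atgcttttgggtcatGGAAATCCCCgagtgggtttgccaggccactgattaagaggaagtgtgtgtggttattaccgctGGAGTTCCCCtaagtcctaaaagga
No match was found in the RELA windows. On either strand, the core of the interferon-stimulated response element matched in RELA only among the 8 genes (3.57% of all windows hold it), and the forkhead motif TGTTTAC in TNIP1 only (3.42% of all windows). These matches describe letters in a window, not binding.

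In PC3, siFOXA1 raised 3 of the 5 feedback genes and lowered 1 of the 5 subunits. TNFAIP3 and BIRC3 rose most, NFKBIA rose slightly, and NFKB1 fell. A gene is called changed here when its adjusted p in edgeR's quasi-likelihood test is under 0.05, and by that rule 27.7% of the 26478 genes tested in PC3 were called, 13.9% higher and 13.9% lower. The count of called members was not tested against these shares. The NFKBIA call was lost in 5 of the 6 fits that left out a library. In these bulk libraries, fewer cells that express a gene and less RNA per cell cannot be told apart.

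In VCaP, siFOXA1 raised 4 of the 5 subunits and 3 of the 5 feedback genes, and lowered TNIP1. BIRC3 and TNFAIP3 again had the largest fold changes among the 10 genes, followed by REL, NFKBIA and RELB. Of all 22939 genes tested in VCaP, 45.8% were called, 22.5% higher and 23.3% lower. The median log2 fold change of the 10 genes was 0.06 in PC3 and 0.66 in VCaP, beside medians of -0.01 and 0.02 over all genes tested. All 10 genes passed the filter on low counts in each line, and each reached its cutoff in all libraries of both groups.

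**Figure D1:**
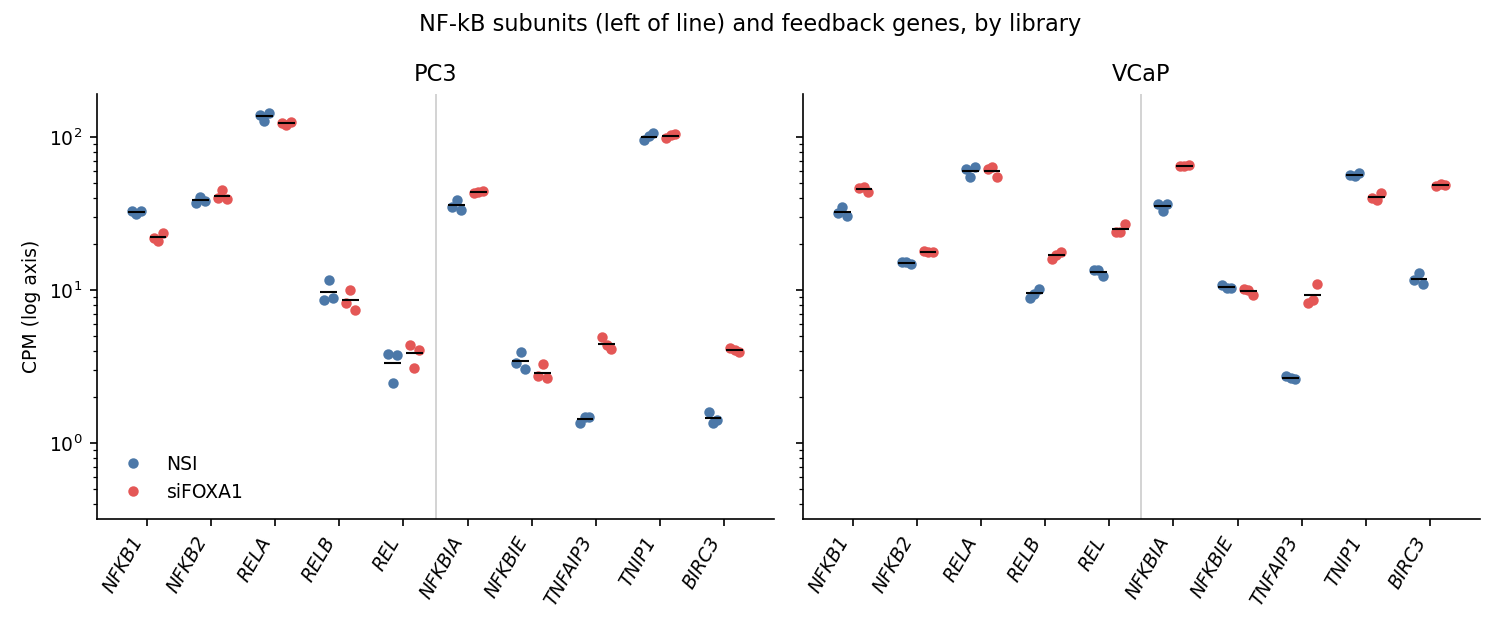
CPM (log axis) of the 10 genes in each library of PC3 (left) and VCaP (right), NSI in blue and siFOXA1 in red, with a bar at each group's mean; the vertical line separates subunits from feedback genes. TNFAIP3 and BIRC3 stand apart between the groups in both lines, while NFKB1 is lower in siFOXA1 in PC3 and higher in VCaP.

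Among the subunits, NFKB1 (chr4:103422486-103538459 on GRCh37, plus strand) encodes p105, the precursor of p50. In PC3 it was at 32.7, 31.4 and 33.0 CPM in the NSI libraries and at 21.8, 20.9 and 23.7 CPM in the siFOXA1 libraries. Every siFOXA1 library was below every NSI library, and the log2 fold change was -0.55 (SE 0.08, adjusted p = 0.00229). In VCaP it was at 32.2, 35.2 and 30.5 CPM with NSI and at 46.2, 47.1 and 44.1 CPM with siFOXA1. There every siFOXA1 library was above every NSI library, and the log2 fold change was 0.49 (SE 0.07, adjusted p = 0.000267). CPM of siFOXA1 and NSI libraries did not overlap for 45.1% of all genes tested in PC3 and for 55.9% in VCaP.

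NFKB2 (chr10:104153867-104162286, plus strand) encodes p100, the precursor of p52. In PC3 its NSI libraries were at 36.9, 40.5 and 38.3 CPM and its siFOXA1 libraries at 39.9, 44.9 and 39.2 CPM. These groups overlapped, and the log2 fold change was 0.10 (95% interval -0.10 to 0.30, adjusted p = 0.437). The VCaP libraries were at 15.2, 15.2 and 14.8 CPM with NSI and at 18.0, 17.9 and 17.7 CPM with siFOXA1. The groups stood apart there, with a small rise of 0.24 on the log2 scale (SE 0.06, adjusted p = 0.0107).

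RELA (chr11:65421067-65430565, minus strand) encodes p65, the main transactivating subunit of the canonical pathway. It was at 138, 127 and 144 CPM with NSI and at 123.1, 121 and 126 CPM with siFOXA1 in PC3. The groups did not overlap, but the log2 fold change of -0.15 did not pass the test (95% interval -0.34 to 0.04, adjusted p = 0.218). The VCaP libraries were at 61.8, 55.0 and 63.4 CPM with NSI and at 62.0, 63.4 and 54.8 CPM with siFOXA1. Those groups overlapped over most of their range, and the interval of the log2 fold change ran from -0.17 to 0.18 (adjusted p = 0.993).

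RELB (chr19:45504688-45541456, plus strand) encodes the partner of p52. In PC3 it was at 8.68, 11.6 and 8.85 CPM with NSI and at 8.28, 10.1 and 7.44 CPM with siFOXA1. The groups overlapped (log2 fold change -0.18, 95% interval -0.53 to 0.17, adjusted p = 0.423). In VCaP it was at 8.95, 9.50 and 10.2 CPM with NSI and at 16.0, 16.9 and 17.9 CPM with siFOXA1. Every siFOXA1 library was higher there, and the gene rose by 0.83 on the log2 scale (SE 0.08, adjusted p = 3.63e-05).

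REL (chr2:61108656-61158745, plus strand) encodes c-Rel, a subunit best known from lymphocytes. In PC3, REL was at 3.83, 2.47 and 3.76 CPM with NSI and at 4.42, 3.08 and 4.09 CPM with siFOXA1. The groups overlapped (log2 fold change 0.21, 95% interval -0.25 to 0.66, adjusted p = 0.476). The VCaP libraries were at 13.6, 13.6 and 12.4 CPM with NSI and at 24.07, 23.9 and 27.3 CPM with siFOXA1. The siFOXA1 libraries were all higher, a rise of 0.93 on the log2 scale (SE 0.08, adjusted p = 1.52e-05). An annotated transcript on the same strand, RP11-373L24.1, covers 50.7% of the exonic bases of REL, so its level is uncertain: reads there were split between both genes. No other member shares exonic bases with another gene.

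Among the feedback genes, TNFAIP3 (chr6:138188325-138204449, plus strand) encodes A20, a ubiquitin-editing enzyme that dampens signalling upstream of IKK. PC3 libraries had it at 1.36, 1.49 and 1.48 CPM with NSI and at 4.92, 4.36 and 4.15 CPM with siFOXA1. The groups were far apart, a rise of 1.63 on the log2 scale (SE 0.13, adjusted p = 5.83e-05). The VCaP libraries were at 2.75, 2.69 and 2.62 CPM with NSI and at 8.28, 8.67 and 10.97 CPM with siFOXA1. The rise was 1.79 on the log2 scale (SE 0.13, adjusted p = 5.39e-06), and 1 siFOXA1 library was above the others.

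BIRC3 (chr11:102188181-102210134, plus strand) encodes cIAP2, a ubiquitin ligase that works at TNF receptors and in the turnover of NIK. In PC3 it was at 1.59, 1.36 and 1.43 CPM with NSI and at 4.23, 4.05 and 3.96 CPM with siFOXA1. It rose by 1.48 on the log2 scale (SE 0.12, adjusted p = 8.57e-05). In VCaP it was at 11.6, 13.0 and 10.96 CPM with NSI and at 48.3, 49.2 and 48.5 CPM with siFOXA1. The siFOXA1 libraries lay close together and far above the controls, a rise of 2.04 on the log2 scale (SE 0.07, adjusted p = 1.78e-07).

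NFKBIA (chr14:35870717-35873952, minus strand) encodes IkBα, which holds RELA dimers in the cytoplasm. In PC3, NFKBIA was at 34.9, 38.9 and 33.6 CPM with NSI and at 43.1, 44.1 and 44.5 CPM with siFOXA1. The groups stood apart and the gene rose by 0.29 on the log2 scale (SE 0.09, adjusted p = 0.0348). That call was lost without the filter on low counts (adjusted p = 0.0638) and when any of 5 of the 6 libraries was left out; it held only without the NSI library of replicate 2. The VCaP libraries were at 36.6, 33.1 and 36.4 CPM with NSI and at 64.5, 64.9 and 66.1 CPM with siFOXA1. The rise there was 0.88 on the log2 scale (SE 0.06, adjusted p = 3.46e-06) and remained called without each library in turn.

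NFKBIE (chr6:44225903-44233525, minus strand) encodes IkBε, another cytoplasmic inhibitor. PC3 libraries had it at 3.37, 3.97 and 3.05 CPM with NSI and at 2.75, 3.27 and 2.68 CPM with siFOXA1. The groups overlapped (log2 fold change -0.26, 95% interval -0.59 to 0.07, adjusted p = 0.219). The VCaP libraries were at 10.8, 10.4 and 10.3 CPM with NSI and at 10.2, 10.0 and 9.37 CPM with siFOXA1. The groups did not overlap, but the log2 fold change of -0.09 did not pass the test (95% interval -0.26 to 0.09, adjusted p = 0.392).

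TNIP1 (chr5:150409506-150467221, minus strand) encodes ABIN1, a ubiquitin-binding partner of A20. In PC3 it was at 95.2, 102 and 106 CPM with NSI and at 98.0, 103 and 105 CPM with siFOXA1. These groups overlapped, and the log2 fold change was 0.02 (95% interval -0.17 to 0.20, adjusted p = 0.900). In VCaP it was at 56.4, 55.3 and 58.6 CPM with NSI and at 40.1, 39.0 and 42.9 CPM with siFOXA1. Every siFOXA1 library was lower, and the gene fell by 0.48 on the log2 scale (SE 0.06, adjusted p = 0.000134).

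The response to siFOXA1 differed between the lines for 6 of the 10 genes, 5 more positive and 1 more negative in VCaP, where 22.1% of the 30450 genes tested differed (11.1% in each direction). The difference, the log2 fold change in VCaP minus that in PC3, was 1.02 for NFKB1 (SE 0.11, adjusted p = 1.04e-05), which fell in PC3 and rose in VCaP. It was 0.99 for RELB (SE 0.18, adjusted p = 0.000886) and 0.70 for REL (SE 0.22, adjusted p = 0.0341). NFKBIA (0.57, adjusted p = 0.00154) and BIRC3 (0.54, adjusted p = 0.00638) rose in both lines, and more in VCaP. TNIP1 had a difference of -0.51 (adjusted p = 0.0029). The REL difference was lost with library size alone as the scaling (0.61, adjusted p = 0.0623) and in 10 of the 12 fits that left out a library; with the overlapping transcript's counts added it was 0.72 (adjusted p = 0.0179).

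For the other 4 genes the difference did not pass the test. TNFAIP3 differed by 0.14 between lines with a 95% interval from -0.26 to 0.54. The intervals ran from -0.10 to 0.35 for NFKB2, from -0.13 to 0.40 for RELA and from -0.19 to 0.51 for NFKBIE. FOXA1 itself fell further in VCaP, and the part of that difference in these results was not tested.

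**Figure D2:**
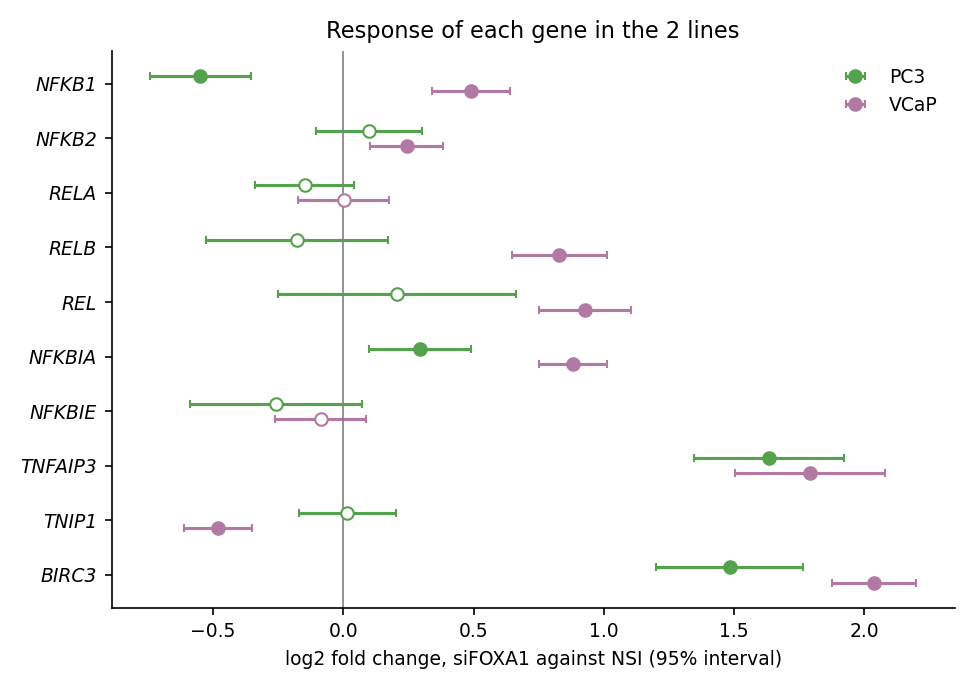
log2 fold change of each gene, siFOXA1 against NSI, with its 95% interval, in PC3 (green) and VCaP (purple); filled points passed the test and open points did not. NFKB1 lies on opposite sides of 0 in the lines, and TNFAIP3 lies close together at 1.63 and 1.79.

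Levels of different genes were compared per length, as TPM (counts scaled by exonic length and library size), within each line. In NSI libraries of PC3 the order from the top was RELA at 71.3 ± 5.93 TPM (SD, n = 3), TNIP1 at 57.9 ± 4.47, NFKBIA at 33.3 ± 2.13, NFKB2 at 18.5 ± 1.00, NFKB1 at 10.4 ± 0.476, RELB at 7.45 ± 1.19 and NFKBIE at 2.37 ± 0.282. TNFAIP3 (0.537 ± 0.0375 TPM), REL (0.527 ± 0.125) and BIRC3 (0.372 ± 0.0285) came last, and the ranges of neighbours among these 3 overlapped. Reads in the exonic bases that REL shares with its overlapping transcript were split, while its full exonic length was used. The level of REL is therefore uncertain here and in the ranks and shares below. With siFOXA1, TNFAIP3 reached 1.84 ± 0.189 TPM and BIRC3 1.15 ± 0.0540 TPM, both still low in that order.

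In NSI libraries of VCaP, NFKBIA (15.6 ± 0.944 TPM, SD, n = 3), TNIP1 (15.5 ± 1.10) and RELA (14.8 ± 0.603) were at the top with overlapping ranges. NFKB1 followed at 4.99 ± 0.856 TPM. RELB (3.48 ± 0.299), NFKB2 (3.45 ± 0.398) and NFKBIE (3.41 ± 0.361) overlapped next to each other. BIRC3 was at 1.45 ± 0.272 TPM, REL at 0.988 ± 0.146 and TNFAIP3 at 0.478 ± 0.0535. With siFOXA1, BIRC3 moved from rank 8 to rank 6 at 5.41 ± 0.511 TPM, with a range overlapping that of RELB, and NFKBIA led at 26.3 ± 2.18 TPM.

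The mix of subunits was taken as each one's share of the summed TPM of the 5. RELA held the largest share in every library of both lines. In PC3 its share was 65.9% ± 2.40 with NSI and 65.3% ± 1.83 with siFOXA1 (SD, n = 3; exact permutation p = 0.6, two-sided). NFKB1 went from 9.59% ± 0.126 to 7.20% ± 0.470 and NFKB2 from 17.1% ± 1.18 to 20.1% ± 1.38 (exact p = 0.1 for each). In VCaP the share of RELA went from 53.6% ± 2.60 to 43.8% ± 2.13 and that of RELB from 12.5% ± 0.760 to 18.2% ± 1.42 (exact p = 0.1 for each). REL went there from 3.55% ± 0.267 to 5.51% ± 0.587 and NFKB1 from 17.9% ± 1.77 to 20.5% ± 0.0907 (exact p = 0.1 for each). With 3 libraries against 3, 0.1 is the smallest p this test can give, so no share can pass 0.05. Shares add to a fixed total, so one that is lower comes with others that are higher.

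**Figure D3:**
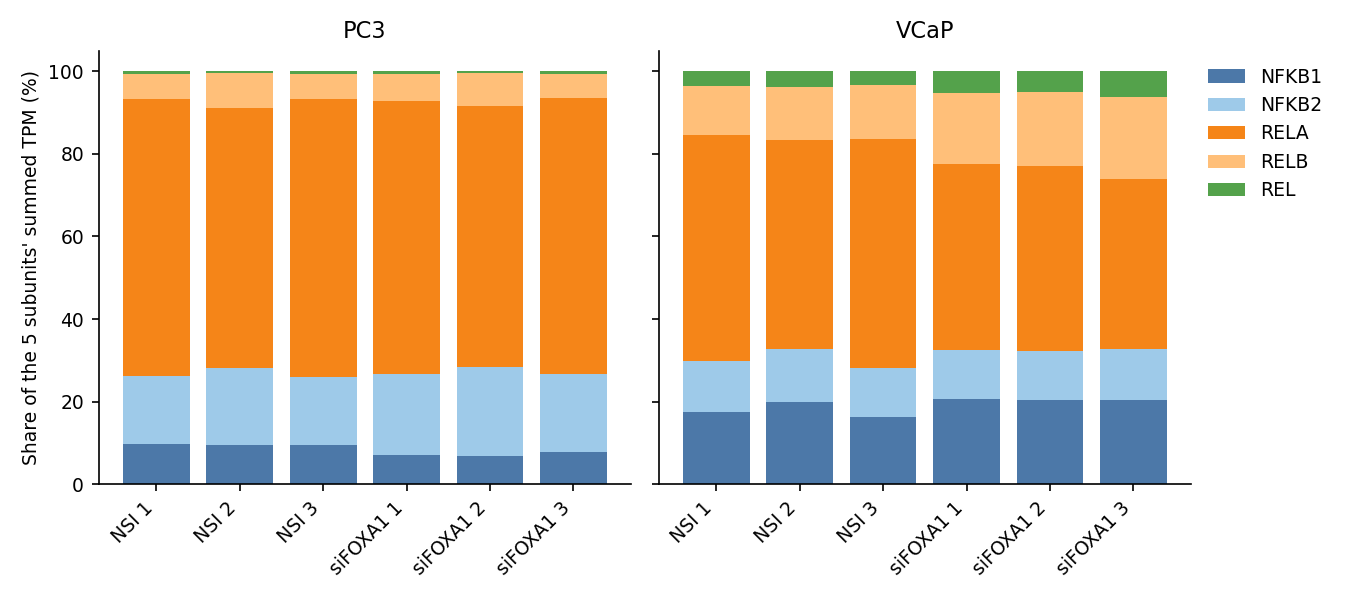
Stacked bars of the share (%) of each subunit in the summed TPM of the 5 subunits, 1 bar per library, PC3 on the left and VCaP on the right. In VCaP the RELA block is smaller in all 3 siFOXA1 libraries (41.3% to 45.03%) than in the NSI libraries (50.6% to 55.4%), and in PC3 it overlaps between groups.

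Upstream of these genes, a list of 41 receptors, adaptors and kinases was counted. This list and those that follow were chosen with earlier results of these data known. The counts in them therefore describe these data and do not test the lists. In PC3, 14 of the 40 tested rose and 4 fell (median log2 fold change 0.16), and in VCaP 19 of 37 rose and 7 fell (median 0.30). Over all genes tested, 13.9% rose and 13.9% fell in PC3, and 22.5% rose and 23.3% fell in VCaP. Of the receptors, 6 of 11 rose and 1 fell in PC3, and 5 of 8 rose and 2 fell in VCaP. TLR3, a sensor of double-stranded RNA, rose in both lines, from 0.286 to 2.37 CPM in PC3 (log2 fold change 3.06, adjusted p = 4.61e-05) and from 7.40 to 17.2 CPM in VCaP (1.22, adjusted p = 3.47e-05). TNFRSF11A, the receptor RANK, rose by 0.79 on the log2 scale in PC3 and by 1.67 in VCaP. TLR4, the receptor for lipopolysaccharide, rose in VCaP from 3.65 to 14.997 CPM (2.04, adjusted p = 6.49e-07). IL1RAP, the shared subunit of IL-1 receptors, fell by 1.35 on the log2 scale in VCaP and rose by 0.54 in PC3.

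Of the adaptors, MYD88, which links Toll-like and IL-1 receptors to the kinases, rose in PC3 from 40.4 to 79.8 CPM (log2 fold change 0.98, adjusted p = 0.000186) and fell by 0.27 in VCaP. That VCaP fall was not called without the NSI library of replicate 1 (adjusted p = 0.0515) or in the fit of all 12 libraries (adjusted p = 0.0582). TRAF3, which restrains NIK, fell by 0.49 on the log2 scale in PC3 and rose by 0.43 in VCaP; its PC3 call was lost without the NSI library of replicate 3 (adjusted p = 0.0551). BCL10, an adaptor of antigen-receptor signalling, fell by 0.47 on the log2 scale in PC3 and rose by 0.32 in VCaP. TRAF1, a TRAF adaptor, was singled out after its values were seen: it rose in VCaP from 6.42 to 15.3 CPM (1.25, adjusted p = 2.70e-05). In PC3 TRAF1 had a log2 fold change of 0.58 (adjusted p = 0.0332), a call lost in 6 of 14 alternatives, among them 5 of the 6 that left out a library (adjusted p up to 0.101).

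Among the kinases, CHUK (IKKα) fell in VCaP from 35.4 to 21.8 CPM (log2 fold change -0.70, adjusted p = 7.62e-05). MAP3K14 (NIK) and IKBKB (IKKβ) were also singled out after their values were seen. MAP3K14 rose in VCaP from 9.62 to 18.7 CPM (0.96, adjusted p = 8.54e-06) and was at 10.4 and 12.1 CPM in PC3 (0.22, adjusted p = 0.208). IKBKB rose in PC3 from 22.7 to 31.2 CPM (0.46, adjusted p = 0.00398), with overlapping groups in VCaP (-0.22, adjusted p = 0.1703).

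Of 16 other IkB proteins and inhibitors, 15 were tested in each line. In PC3 2 rose and 1 fell (median log2 fold change -0.0016), beside 27.7% of all genes called in either direction. With a block for replicate number, which pairs the PC3 libraries, 3 of this list were called higher and 4 lower. That block called 11333 of all 26478 genes tested, 5217 higher and 6116 lower. In VCaP 5 rose and 4 fell (median 0.11), beside 45.8% of all genes called. CYLD, a deubiquitinase that limits NF-kB, rose by 0.46 on the log2 scale in PC3 (adjusted p = 0.0113) and by 0.43 in VCaP (adjusted p = 0.000692). N4BP1 rose in PC3 (0.51, adjusted p = 0.0108) and fell in VCaP (-0.26, adjusted p = 0.00379), a VCaP call lost in 1 of 15 alternatives. RNF11 fell in PC3 (-0.36, adjusted p = 0.0299) and rose in VCaP (0.21, adjusted p = 0.0141), calls lost in 7 and 4 of 15 alternatives. NFKBIZ, a nuclear IkB protein, rose in VCaP from 12.1 to 18.2 CPM (0.59, adjusted p = 0.00045). ZC3H12A, an RNase that degrades cytokine mRNAs, fell in VCaP from 13.2 to 6.10 CPM (-1.11, adjusted p = 0.000129), and OTUD7B, a deubiquitinase, fell by 0.54 on the log2 scale.

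A list of 43 textbook NF-kB targets, also chosen with earlier results of these data known, was counted next. In PC3, 26 of the 40 tested rose and 2 fell (median log2 fold change 1.18), and in VCaP 15 of the 24 tested rose and 2 fell (median 0.68), beside 13.9% of all genes higher in PC3 and 22.5% in VCaP. Of the cytokines, 14 of 16 rose in PC3, and 7 of 9 rose and 1 fell in VCaP. These counts are a description only, since some genes passed the filter on low counts through the group where they were high: CXCL10, CCL2, CCL5, TNF and NOD2 in PC3 and CXCL1, CXCL3 and CXCL8 in VCaP through siFOXA1, and IL15 in VCaP through NSI. The same holds in VCaP for TNFRSF1A among the receptors and OAS2 among the interferon-response genes, both through siFOXA1. CXCL8, a neutrophil chemokine, rose from 11.5 to 52.1 CPM in PC3 (2.19, adjusted p = 8.54e-06) and from 0.228 to 2.76 CPM in VCaP (3.54, adjusted p = 0.000108). Its NSI libraries in VCaP held only 5, 5 and 28 counts, and without the third the log2 fold change was 4.78. CCL2, a monocyte chemokine, rose in VCaP from 0.918 to 16.3 CPM (4.16, adjusted p = 2.48e-07), and CXCL5, another neutrophil chemokine that was below the filter in PC3, from 0.320 to 8.996 CPM (4.80, adjusted p = 9.26e-08). CCL2 was also called higher in PC3 (4.02, adjusted p = 0.00411), at 0, 1 and 1 counts with NSI and 17, 10 and 11 with siFOXA1. Its difference between lines did not pass the test (0.22, 95% interval -3.66 to 4.11). ICAM1, an adhesion molecule, rose from 101 to 222 CPM in PC3 (1.13, adjusted p = 5.53e-05) and from 6.05 to 11.8 CPM in VCaP (0.97, adjusted p = 2.71e-05). CXCL8 and ICAM1 were named after their values were seen.

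IRF1, IL15 and EFNA1 went in different directions in the lines. IRF1, a transcription factor also induced by interferon, rose in PC3 from 19.2 to 103 CPM (2.42, adjusted p = 6.58e-06) and fell in VCaP from 7.67 to 5.66 CPM (-0.44, adjusted p = 0.00941). IL15 rose in PC3 from 0.366 to 2.96 CPM (3.00, adjusted p = 7.95e-05) and fell in VCaP from 0.421 to 0.150 CPM (-1.47, adjusted p = 0.00243). The VCaP libraries held only 27, 19 and 21 counts of IL15 with NSI and 7, 9 and 7 with siFOXA1. There IL15 passed the filter only through NSI. EFNA1 fell by 0.65 on the log2 scale in PC3 and rose by 0.61 in VCaP. IER3, a stress-response gene, fell in PC3 from 212 to 142 CPM (-0.58, adjusted p = 0.0379), a call lost in 7 of 15 alternatives, and it was below the filter in VCaP.

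Genes of the interferon response, a response that shares some targets with NF-kB signalling, moved beside these lists in PC3. All 13 of them rose in PC3 (median log2 fold change 3.13), where 13.9% of all genes rose and 13.9% fell. Their summed level in PC3 went from between 588 and 848 CPM to between 5317 and 5499 CPM. IFIT1 rose there from 28.6 to 486 CPM and IRF7 from 34.6 to 115 CPM. In VCaP 7 of the 13 rose and 1 fell (median 0.46), where 22.5% of all genes rose and 23.3% fell, with summed levels of 156 to 168 CPM and 170 to 173 CPM. Their part in the NF-kB results was not tested. Leukocyte markers summed to 1.70 to 2.33 CPM with NSI and 2.26 to 2.64 CPM with siFOXA1 in PC3, and to 1.09 to 1.37 and 2.68 to 3.65 CPM in VCaP, where CD14 was the only marker at 1 CPM or more and CD3D and CD2 were at 0. The 9 fibroblast and endothelial markers in the tables summed to 29.8 to 34.6 CPM and 48.0 to 53.1 CPM in PC3, and to 15.6 to 25.1 and 3.73 to 9.64 CPM in VCaP. Single markers went different ways in PC3, where 3 of the 7 tested rose (COL1A1, COL1A2 and COL3A1) and 2 fell (PDGFRA and PDGFRB). Of the 6 tested in VCaP, 0 rose and 3 fell (LUM, VWF and PDGFRB). A change in cell types was not tested.

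**Figure D4:**
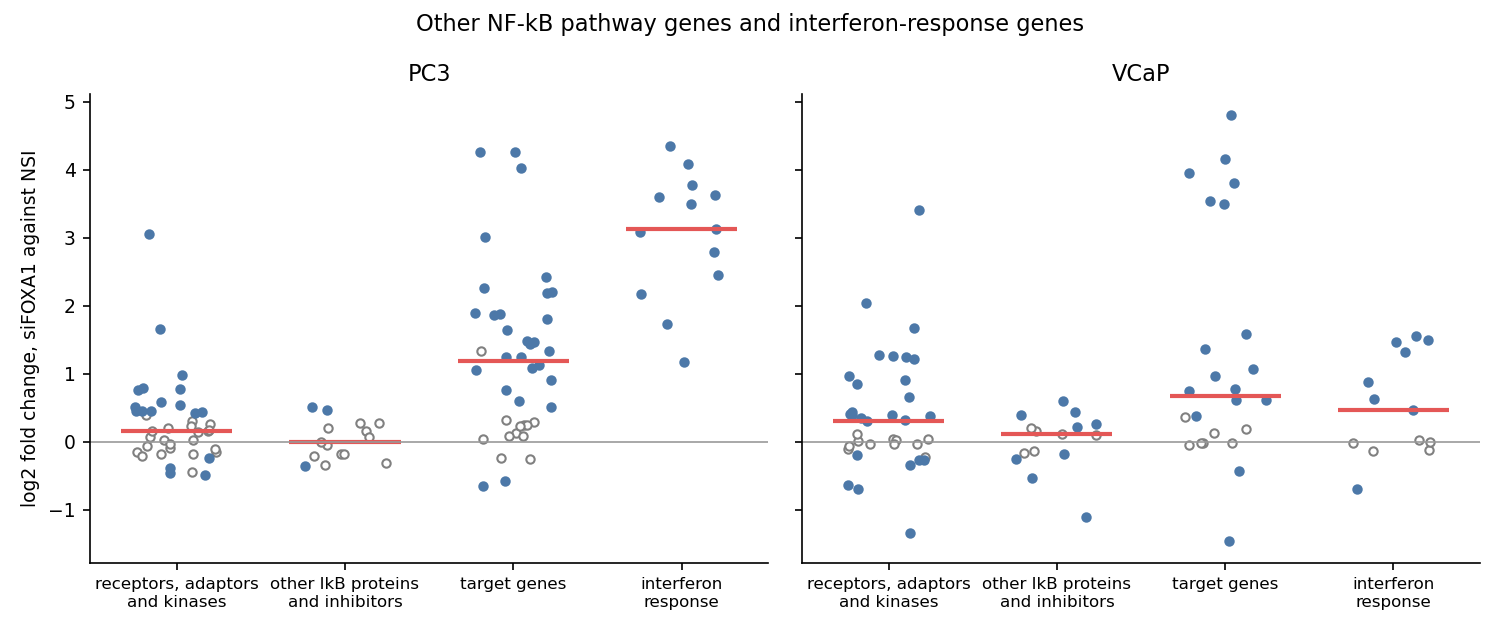
log2 fold change, siFOXA1 against NSI, of each tested gene in 4 lists in PC3 (left) and VCaP (right); filled points passed the test, open points did not, and the red bar is the list's median. Target genes have medians of 1.18 in PC3 and 0.68 in VCaP, and interferon-response genes of 3.13 and 0.46.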

How the data were processed

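The values are estimated counts per gene, in 1 deposited table for each library. Read pairs were counted by the authors over exons of each gene with featureCounts on GRCh37, per the file headers, with multi-mapping and multi-overlapping reads split into fractions, so counts need not be whole. STAR 2.7.3a and Subread 2.0.0 are named in the submitters' processing notes. Counts were rounded (0.5 upwards) and each line was fitted alone with edgeR 4.0.16 in R 4.3.3: quasi-likelihood test, TMM factors, filterByExpr, two-sided, Benjamini-Hochberg adjustment over all genes tested. Differences between lines came from the interaction term over 12 libraries. CPM use TMM-scaled library sizes; TPM use unrounded counts and exonic lengths. SE is the log2 fold change divided by the square root of F. The fits were also run on simulated counts with known changes, and the outcome is not reported here.

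The members and lists were chosen with earlier results of these data known. Named genes, beside the members and FOXA1, are in each list and line the 2 largest rises and 2 largest falls among called genes whose groups stand apart and whose mean reaches 1 CPM, plus IFIT1 and IRF7 (1 further gene of the rule is not reported here); genes named otherwise are said to be. Replicate numbers came from the sample titles. Same-numbered PC3 libraries deviated together (r = 0.445, 0.589 and 0.251 over 16613 genes). Those numbered 1 and 2, though not 3, correlated best with each other. In VCaP the values were 0.109, 0.0344 and 0.391 over 16420 genes, and only those numbered 3 correlated best with each other. Fold changes, SE and p-values come from fits without pairing unless a replicate block is named. Promoter sequences are from RefSeq (GRCh38.p14). Alternatives were other scalings, DESeq2 1.42.0, other filters, rounding 0.5 to the even number, a replicate block, 1 fit of all libraries and each library left out; rounding to even and the sum of REL with its overlapping transcript were chosen after seeing the data.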

Additional observations from a re-analysis of the deposited data

Results flagged for a closer look

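The response to siFOXA1 differed between the lines by the interaction test for 28 named genes that passed the filter on low counts in both lines. Over all 30450 genes tested, 22.1% differed. Apart from the members, FOXA1, IFIT1 and IRF7, these genes were named for their changes in these data. A difference between lines is therefore partly built in, and the count is a description only. In VCaP, IL15 and CXCL8 passed the filter only through the group where they were high. Each value is the log2 fold change in VCaP minus that in PC3. Line, dose, medium, kit and counting cannot be told apart in it. FOXA1 itself had -1.94.

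Among the NF-kB subunits and feedback genes the differences were 1.02 for NFKB1, 0.99 for RELB, 0.70 for REL, 0.57 for NFKBIA, 0.54 for BIRC3 and -0.51 for TNIP1. Receptors and adaptors gave -1.86 for TLR3, 1.85 for TLR4, 0.86 for TNFRSF11A, -1.90 for IL1RAP, -1.27 for MYD88, 0.66 for TRAF1, 0.90 for TRAF3 and 0.77 for BCL10. The TRAF1 difference was not called in 6 of 20 alternatives. Kinases gave 0.72 for MAP3K14, -0.66 for CHUK and -0.69 for IKBKB. Other regulators gave -0.50 for OTUD7B, 0.55 for RNF11, -0.94 for ZC3H12A and -0.78 for N4BP1, and the OTUD7B difference was not called in 5 of 20 alternatives. Targets gave 1.34 for CXCL8, -4.50 for IL15, 1.25 for EFNA1 and -2.87 for IRF1, and the CXCL8 difference was not called in 4 of 20 alternatives. With a library left out it ranged from 0.97 to 2.61, the highest without the VCaP NSI library of replicate 3. CXCL5, below that filter in PC3, differed by 4.79 (adjusted p = 0.0188), but by 2.19 (adjusted p = 0.872) without the PC3 NSI library of replicate 3. The interferon-response examples gave -3.22 for IFIT1 and -1.86 for IRF7.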

How the results depend on the processing

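Over 16 alternatives in each line, the 10 genes gave 3 to 4 calls in PC3 and 8 under each alternative in VCaP, while 5 to 6 differed between lines over 21 alternatives. With the replicate block, no call among the 10 genes changed; the PC3 list of other regulators went from 3 to 7 calls (3 higher, 4 lower) and PC3 calls over all genes from 7344 to 11333. In VCaP, where 1 of the 3 numbers paired libraries that correlated best with each other, 10500 calls became 11474 with the block. PC3 calls over all genes were 4738 without the NSI library of replicate 3 and 3963 without the siFOXA1 library of replicate 1. With library size alone, 64.3% of PC3 calls were higher, against 50.0%. Directions reversed only for values that did not pass the test. RELA in VCaP was -0.00607 with DESeq2 and with RLE factors, -0.0086 with library size alone, -0.0107 with no filter, and ranged from -0.0658 to 0.0627 with a library left out (lowest without NSI replicate 2, -0.0279 and -0.0377 without siFOXA1 replicates 1 and 2). TNIP1 in PC3 was -0.00668 without NSI replicate 1 and -0.0015 without siFOXA1 replicate 3 (-0.00668 to 0.0742 over left-out libraries), and RELB in PC3 was 0.0129 without NSI replicate 2 (-0.31 to 0.01). The change in the RELA share in PC3 was 0.00926 points for counts not scaled by length, and 0.0871, 0.244 and 0.498 points without NSI replicates 1 and 3 and siFOXA1 replicate 2 (-1.91 to 0.498 over left-out libraries). The RELB share in PC3 changed by 0.553 and 0.232 points without NSI replicate 2 and siFOXA1 replicate 3 (-0.761 to 0.553). The cause was not tested. With a library left out, NFKBIA in PC3 ranged from 0.25 to 0.40 (adjusted p up to 0.143) and the REL difference between lines from 0.49 to 0.84 (adjusted p up to 0.146). The lowest count of a member was 135, for TNFAIP3 in a VCaP NSI library.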
